A study of Mus musculus with 6 samples.

Results

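Fc receptors bind the constant part of antibodies and pass the signal on through short tyrosine motifs. The 8 genes described here are the Fc gamma receptors Fcgr1, Fcgr2b, Fcgr3 and Fcgr4, the IgE receptor chain Fcer1a, the adaptors Fcer1g and Tyrobp, and Trem3, a myeloid receptor of the TREM family. They were listed by symbol, and every probe set annotated to exactly 1 of these symbols was taken, which gave 13 probe sets among the 45037 tested and 8 genes among 18193. The list was drawn up with the differences between the genotypes in these same arrays known, Fcgr2b first among them. Differences of these 8 genes are therefore given as a description and not as a test.

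The cells were LKS+ cells, sorted as lineage-negative with high c-Kit and with Sca-1 on the surface, the compartment of the marrow in which hematopoietic stem cells and early progenitors are found. The groups were 3 arrays from Apcmin mice, which carry the Min allele of Apc, a truncating mutation in a gene that restrains beta-catenin, and 3 arrays from wild type (WT) mice. No age, sex, strain or treatment was given in the labels, and the Min allele is a germline change present in every cell of the animal, so these cells were not the only ones affected. Per the labels, at least 20000 cells per mouse were sorted at a purity above 90%, their RNA was linearly amplified, and Affymetrix whole-genome mouse arrays were hybridized. The series presents the Apcmin mouse as a model of myeloid disease arising from altered stem cells, and the comparison asks which transcripts differ in these cells. The labels do not identify individual animals. Every array was counted as a separate mouse. If that does not hold, the spread between arrays may be technical, or may lie between pools of mice.

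Activating Fc receptors have no signalling motif of their own and depend on the FcR gamma chain, encoded by Fcer1g, whose cytoplasmic tail holds an immunoreceptor tyrosine-based activation motif (ITAM). Tyrobp, also known as DAP12, is a second ITAM adaptor and serves TREM family receptors, mouse TREM-3 included. Fcgr2b is the exception among the Fc gamma receptors, since its own tail holds an inhibitory motif (ITIM) that recruits phosphatases and dampens ITAM signals. Receptors of this kind are best known on monocytes, neutrophils, mast cells, B cells and NK cells, and surface Fc gamma receptor is also used to separate myeloid progenitors by flow cytometry.

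The genes of Fcgr2b, Fcgr4 and Fcgr3 lie next to one another, with Fcer1g a short distance away, in the RefSeq annotation of GRCm38.p6. Promoter sequences of the 4 Fc gamma receptors are shown because all 4 had a lower mean in Apcmin and because PU.1, an Ets family factor, is known to act on promoters of myeloid genes. Each window runs from 250 bases before to 50 bases after a RefSeq start in GRCm38.p6, 5′ to 3′ on the strand of the gene. Capitals mark matches on either strand to GAGGAA, the core of a PU box, or to GGAAGT, an Ets core that can overlap it. The windows are chr3:96293920-96294219 for Fcgr1, chr1:170976022-170976321 for Fcgr2b and chr1:171059354-171059653 for Fcgr3, all on the minus strand, and chr1:171018676-171018975 on the plus strand for Fcgr4.
Fcgr1: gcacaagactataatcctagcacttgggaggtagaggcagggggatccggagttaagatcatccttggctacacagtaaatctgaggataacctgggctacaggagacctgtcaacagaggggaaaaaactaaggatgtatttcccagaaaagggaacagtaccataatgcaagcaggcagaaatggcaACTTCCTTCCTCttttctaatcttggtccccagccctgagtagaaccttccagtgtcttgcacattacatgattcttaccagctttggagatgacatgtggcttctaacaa
Fcgr2b: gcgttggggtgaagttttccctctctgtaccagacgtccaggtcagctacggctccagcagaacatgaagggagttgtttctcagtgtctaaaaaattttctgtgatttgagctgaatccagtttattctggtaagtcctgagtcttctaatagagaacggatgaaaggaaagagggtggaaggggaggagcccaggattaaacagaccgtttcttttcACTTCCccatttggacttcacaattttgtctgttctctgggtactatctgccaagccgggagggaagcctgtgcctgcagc
Fcgr3: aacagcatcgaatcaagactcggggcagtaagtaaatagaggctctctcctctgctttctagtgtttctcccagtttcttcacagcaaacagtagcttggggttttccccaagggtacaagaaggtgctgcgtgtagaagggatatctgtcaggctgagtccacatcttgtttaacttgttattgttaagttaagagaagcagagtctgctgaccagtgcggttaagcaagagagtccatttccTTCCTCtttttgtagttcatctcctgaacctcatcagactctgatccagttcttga
Fcgr4: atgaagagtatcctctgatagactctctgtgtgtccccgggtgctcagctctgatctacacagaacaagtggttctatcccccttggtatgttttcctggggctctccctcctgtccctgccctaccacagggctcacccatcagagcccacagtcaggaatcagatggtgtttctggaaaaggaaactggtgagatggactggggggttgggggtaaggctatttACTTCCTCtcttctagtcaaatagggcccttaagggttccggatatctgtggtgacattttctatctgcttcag

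All the matches in these windows are on the reverse strand and lie before the annotated start. Fcgr4 has both motifs overlapping in 1 run, and Fcgr1 has both side by side. Fcgr3 has GAGGAA alone and Fcgr2b GGAAGT alone. The Fcer1g window holds neither motif, and the Fcer1a window has 1 GAGGAA match. Among 32851 windows of this length, 28.3% held GAGGAA on either strand, 23.8% held GGAAGT and 8.65% held both. The matches describe these letters only and say nothing about binding of any factor in these cells.

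As a check of the label, the LKS+ population was set against its markers. All 9 measured stem and progenitor markers, Kit, Cd34, Flt3 and Mecom among them, averaged 6 or more in log2 intensity, the level taken here as bright. Markers of mature cells were bright in part. Of 8 neutrophil markers 6 were bright, with S100a8 at a mean of 11.4 and Camp, a granule peptide, at 9.59. Of 11 monocyte and macrophage markers only Csf1r and Ly86 were bright, while Itgam and Adgre1, which encode macrophage surface antigens, had means of 2.70 and 2.63. Genes of granulocyte-monocyte progenitors were all bright, 7 of 7, with Mpo and Ctsg among them. No detection call was available, so a dim value is not evidence that a transcript is present or absent.

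Across the whole array, limma with Benjamini-Hochberg adjustment found 0 of 45037 probe sets past an adjusted p of 0.05 (0.00%), with 1714 at an unadjusted p under 0.05 (3.81%). None of the 8 genes was past it either (0.00% of genes). The 8 genes had a median log2 difference of -0.41 (Apcmin minus WT), against -0.04 over all 18193 genes, and 7 of 8 had a lower mean in Apcmin, where the background share was 57.0% of genes. Among the 8658 bright genes that share was 43.7%, and all 5 bright genes of the group (Fcgr2b, Fcgr3, Fcer1g, Tyrobp and Trem3) had a lower mean. In 2 of the 8, Fcgr2b and Trem3, every Apcmin array lay below every WT array, which 4.76% of all genes and 3.48% of bright genes also showed. Of the 13 probe sets 12 had a lower mean in Apcmin (55.6% of all probe sets) and 5 had every Apcmin array below every WT array (4.78% of all probe sets). Since the list was made from this contrast, nothing is read from these counts. In sorted populations, fewer cells of a type and less RNA per cell cannot be told apart.

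**Figure D1:**
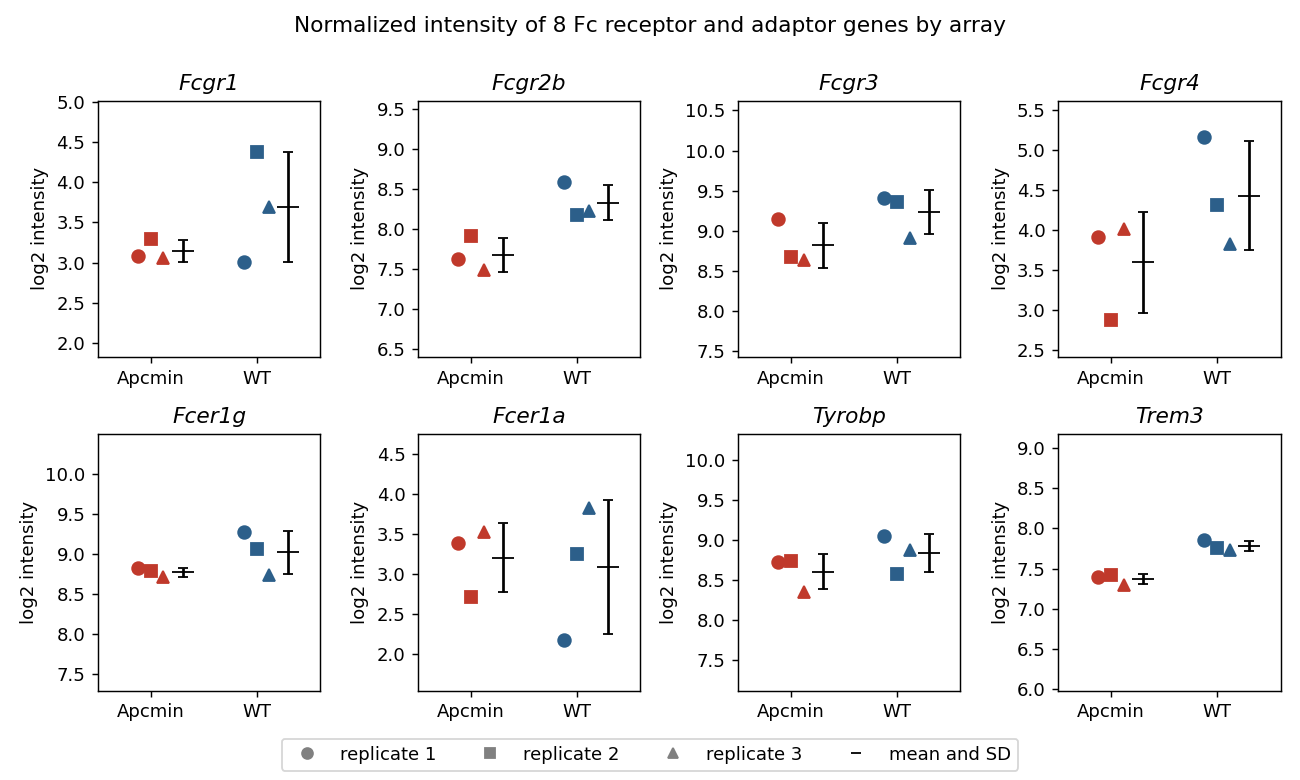
Log2 normalized intensity (vertical axis, each panel spanning the same number of log2 units) of the probe set that represents each gene, for Apcmin and WT arrays, with symbols for the replicate number and black marks for mean and SD. Only Fcgr2b and Trem3 have all 3 Apcmin arrays below all 3 WT arrays.

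Fcgr2b, the inhibitory receptor, had the lowest difference of the bright genes in the group. Its brightest probe set read 7.62, 7.91 and 7.48 on a log2 scale in Apcmin, against 8.58, 8.18 and 8.23 in WT. The highest Apcmin value lay 0.27 below the lowest WT value, so the groups did not overlap. The means were 7.67 ± 0.21 in Apcmin and 8.33 ± 0.22 in WT (SD, n = 3 each). The difference was -0.66 (standard error 0.19), which is 63.4% of the WT level. By size of this difference Fcgr2b stood 17th from the bottom of the 8658 bright genes.

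The other 4 probe sets of Fcgr2b all had a lower mean in Apcmin, though not to the same degree. Probe set 1435476_a_at differed by -0.71 (standard error 0.23) and 1455332_x_at by -0.58 (0.18). Both bright ones separated the genotypes, but by narrow margins of 0.07 and 0.15 between the nearest arrays. Probe set 1451941_a_at, at a mean of 5.35, differed by -0.27 and separated them by 0.09, while 1447622_at lay at the bottom of the range, at a mean of 1.04, and did not separate them. These are not independent measurements, because they read the same RNA and 3 of the 5 were designed from the same sequence entry. The suffixes _s_at and _x_at mark probes that can match other transcripts, and the extracellular parts of Fcgr2b and Fcgr3 are known to be closely similar, so some of the signal may be shared between these genes. No probe sequences were used here to settle that.

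**Figure D2:**
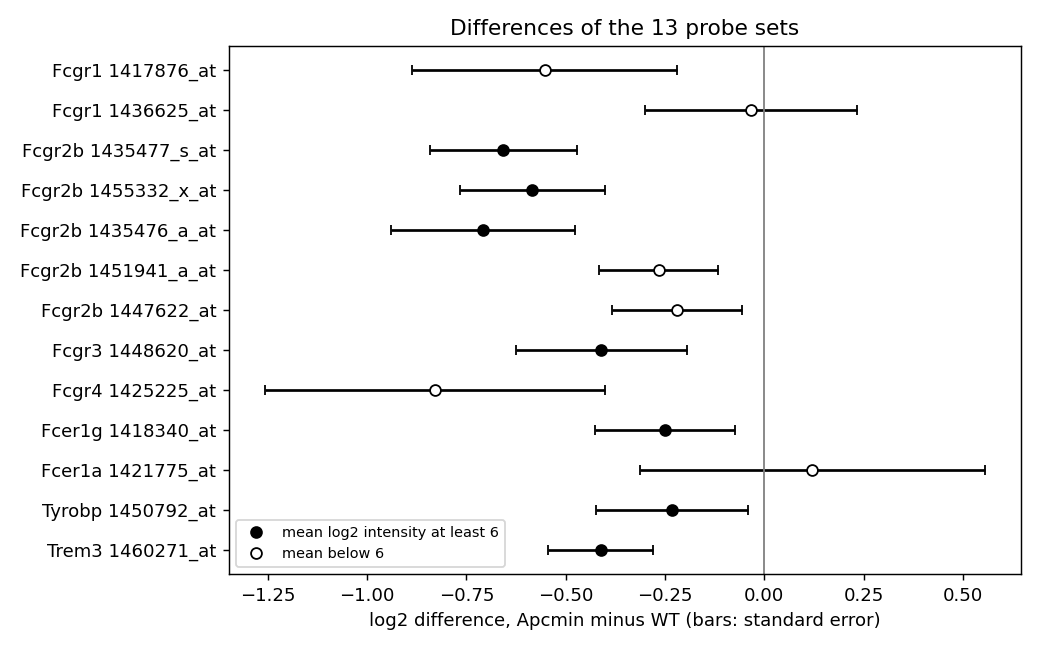
Log2 difference of Apcmin minus WT with its standard error for all 13 probe sets, grouped by gene, with filled points for a mean log2 intensity of at least 6 and open points for dimmer ones. Of the 13 probe sets 12 lie below 0, and only Fcer1a lies above.

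Fcgr3, a low-affinity activating receptor for IgG, was the next Fc gamma receptor that was bright. It read 9.15, 8.68 and 8.63 in Apcmin, against 9.41, 9.36 and 8.91 in WT. The groups overlapped, since Apcmin replicate 1 lay above WT replicate 3. The difference was -0.41, its standard error 0.22 (8.82 ± 0.28 in Apcmin and 9.23 ± 0.27 in WT, SD, n = 3 each). The within-array log2 ratio of Fcgr2b over Fcgr3, inhibitory over activating, was centred on its mean over the arrays. It was -0.50, 0.25 and -0.12 in Apcmin, against 0.19, -0.16 and 0.34 in WT. These values overlapped, so a shift of the ratio between the genotypes was not seen beyond the spread between arrays.

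Fcgr4, the other activating IgG receptor of the cluster, was dim and varied widely. It read 3.91, 2.88 and 4.01 in Apcmin, against 5.16, 4.31 and 3.82 in WT. Its difference of -0.83 with a standard error of 0.43 depended on single arrays. It was -0.47 without Apcmin replicate 2 and -0.46 without WT replicate 1, but -1.13 without WT replicate 3 and -1.04 without Apcmin replicate 3. Fcgr1, the high-affinity receptor for IgG, was dim as well, at 3.08, 3.30 and 3.05 in Apcmin and 3.01, 4.38 and 3.70 in WT. Its difference was -0.55, became -0.21 without WT replicate 2 and -0.90 without WT replicate 1, and was -0.03 in its other probe set. The 4403 genes averaging from 2 to 4, the range of Fcgr1, had a median difference of -0.18. The 2358 genes averaging from 4 to 6 had one of -0.02, and Fcgr4, with a mean of 4.01, lies at the border of these classes.

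Fcer1a, the IgE-binding chain of the receptor on mast cells and basophils, was the member without a lower mean. It read 3.38, 2.71 and 3.52 in Apcmin, against 2.18, 3.25 and 3.82 in WT, and the WT arrays spanned all the Apcmin values. The difference of 0.12 had a standard error of 0.43 and was -0.33 without WT replicate 1 and -0.04 without Apcmin replicate 3. Ms4a2, the beta chain of the same receptor, was dim too and averaged 5.53 ± 0.59 in Apcmin and 4.89 ± 0.70 in WT (SD, n = 3 each). Of the 3 kinds of chain of that receptor only the shared gamma chain gave a bright signal.

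Fcer1g, the gamma chain that activating Fc receptors need for assembly and signalling, was bright. It read 8.82, 8.79 and 8.71 in Apcmin, against 9.27, 9.06 and 8.73 in WT. The Apcmin arrays were close together (8.77 ± 0.06, SD, n = 3) and the WT arrays spread more (9.02 ± 0.27, SD, n = 3), with WT replicate 3 inside the Apcmin range. The difference of -0.25 had a standard error of 0.18. It was -0.13 without WT replicate 1 and -0.39 without WT replicate 3. Tyrobp, the DAP12 adaptor, read 8.73, 8.74 and 8.35 in Apcmin, against 9.05, 8.58 and 8.88 in WT, and the groups overlapped. Its difference of -0.23 had a standard error of 0.19 and was -0.12 without WT replicate 1 and -0.10 without Apcmin replicate 3. The 2 adaptors thus had similar estimates, and the log2 ratio of one over the other differed by -0.02 between the genotypes.

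Trem3, a receptor that signals through Tyrobp, had closely spaced arrays in both genotypes. It read 7.40, 7.42 and 7.30 in Apcmin, against 7.85, 7.76 and 7.73 in WT. The highest Apcmin value lay 0.32 below the lowest WT value, the widest gap of any probe set in the group. The means were 7.37 ± 0.06 in Apcmin and 7.78 ± 0.06 in WT (SD, n = 3 each). The difference was -0.41 (standard error 0.13), which is 75.2% of the WT level. Leaving out any single array gave differences from -0.44 to -0.38. Only 1 probe set measured Trem3, so agreement among probe sets could not be checked for it, nor for Fcgr3, Fcgr4, Fcer1g, Fcer1a and Tyrobp.

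Receptors were also set against adaptors on the same array, again as a description. The log2 ratio of Fcgr2b over Tyrobp, centred as above, was -0.38, -0.11 and -0.14 in Apcmin, against 0.25, 0.32 and 0.07 in WT, without overlap. The ratio of Fcgr2b over Fcer1g was -0.30, 0.02 and -0.33 in Apcmin, against 0.21, 0.01 and 0.39 in WT, and there Apcmin replicate 2 lay just above WT replicate 2. The ratios of Trem3 over Tyrobp and of Fcgr3 over Fcer1g also overlapped between the groups, with differences of -0.18 and -0.16. Of these 4 ratios of a receptor over an adaptor, only that of Fcgr2b over Tyrobp separated the genotypes. Fcgr2b was listed first for its difference in this contrast, so that separation in part restates the choice. How often ratios of other genes separate was not computed, and Fcgr2b, with its own motif, is not a partner of Tyrobp.

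Deviations of the 5 bright genes were compared array by array. Since the genes were chosen as lower in Apcmin, a high WT array and a low Apcmin array in part restate that choice. WT replicate 1 was the highest of the 6 arrays in all 5, and Apcmin replicate 3 the lowest in all 5. The median deviation of these genes from their own means was 0.37 on WT replicate 1 and -0.37 on Apcmin replicate 3, while bright genes as a whole deviated by a median of -0.03 and 0.01 on these arrays. On the other arrays the members' median deviation was -0.08 and -0.11 in Apcmin (replicates 1 and 2) and 0.18 and 0.16 in WT (replicates 2 and 3). The genes parted on some arrays. On WT replicate 3 Fcgr2b deviated by 0.23, against -0.11 for Fcgr3 and -0.16 for Fcer1g, and on Apcmin replicate 1 Fcgr3 deviated by 0.12, against -0.38 for Fcgr2b. Without WT replicate 1 the differences of Fcgr2b, Fcgr3 and Trem3 were -0.53, -0.32 and -0.38. Without Apcmin replicate 3 they were -0.56, -0.32 and -0.38.

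**Figure D3:**
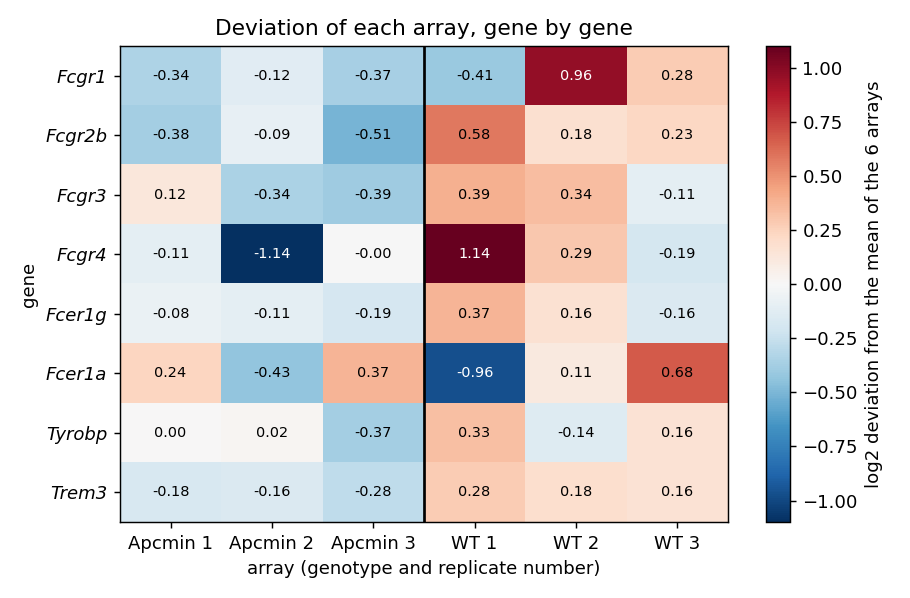
Log2 deviation of each array from the mean of the 6 arrays for each of the 8 genes, with Apcmin arrays left of the line and WT arrays right of it. WT replicate 1 is the reddest column and Apcmin replicate 3 the bluest among Fcgr2b, Fcgr3, Fcer1g, Tyrobp and Trem3, while Fcgr1 and Fcer1a are lowest on WT replicate 1.

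Markers of other cells that carry these receptors were measured on the same arrays. The summed intensity of the 11 monocyte and macrophage markers ran from 632 to 830 in Apcmin and from 697 to 1087 in WT, overlapping, and its highest value was on WT replicate 1. Of these markers 7 had a lower and 4 a higher mean in Apcmin, and Cd14 alone separated the genotypes, at a dim level. The bright ones had the same sign as the bright Fc receptors, and their part in those differences was not tested. Csf1r differed by -0.18 and Ly86 by -0.22, and both were lowest on Apcmin replicate 3 (7.90 and 8.09) and highest on WT replicate 1. The summed intensity of the 6 NK cell markers did not overlap, at 1796 to 2080 in Apcmin and 2325 to 2341 in WT. That sum was carried by Nkg7, a granule protein of cytotoxic cells, at 10.70 ± 0.12 in Apcmin and 11.04 ± 0.01 in WT (SD, n = 3 each). Of the 6 NK cell genes 4 had a lower and 2 a higher mean in Apcmin. Only Nkg7 separated the genotypes, as 3.48% of bright genes did in that direction. Prf1, the other bright gene of the list, differed by 0.07. The share of gene sets whose sums separate was not computed. The defining NK genes Ncr1 and Eomes were near the bottom of the range, with means of 1.80 and 1.68. Sums over the 7 granulocyte-monocyte progenitor genes (14088 to 15578 in Apcmin, 14438 to 15880 in WT), the 8 neutrophil genes (8097 to 8873 in Apcmin, 6952 to 10773 in WT) and the 6 B cell genes (535 to 638 in Apcmin, 606 to 790 in WT) overlapped. All 6 B cell genes had a lower mean in Apcmin, with a median difference of -0.28, but 4 of them were dim. Of all genes averaging from 2 to 4, 76.8% had a lower mean, and of those from 4 to 6, 52.7%. The bright B cell genes, Ighm and Cd79b, differed by -0.28 and -0.14, where 43.7% of bright genes had a lower mean. The 9 mast cell and basophil genes summed to 2022 to 2158 in Apcmin and 1842 to 2108 in WT, also overlapping, with 5 lower and 4 higher. The part that any such cells had in the Fc receptor values was not tested.

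Other genes of the pathway came from 7 lists that hold 115 genes, of which 102 were measured. None of the 102 passed the threshold in limma (0 of 102, adjusted p of 0.954 or more), against a background of 0.00%. At an unadjusted p under 0.05 there were 4, where 3.11% of all genes lay. Their median difference was -0.05, with 63 lower and 39 higher in Apcmin. Every Apcmin array lay below every WT array in 3 of them and above in 5, where 4.76% and 2.97% of all genes did so.

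Among other Fc receptors 5 of 9 had a lower mean. Trim21, a cytosolic receptor for antibodies, averaged 9.81 ± 0.11 in Apcmin and 9.76 ± 0.21 in WT, and Fcgrt, the neonatal Fc receptor that recycles IgG, 6.05 ± 0.46 in Apcmin and 6.27 ± 0.01 in WT (SD, n = 3 each). The list of TREM family and other receptors linked to ITAM adaptors had 15 of 21 lower, but only 3 were bright, Treml2, Clec4d and Clec4e. Not every receptor on it is known to use Fcer1g or Tyrobp. Trem1, a neighbour of Trem3 in the annotation and its relative on myeloid cells, was dim and averaged 3.70 ± 0.38 in Apcmin and 4.28 ± 0.28 in WT (SD, n = 3 each). Trem2, a DAP12 partner on macrophages, differed by -0.16, and Treml2, which was bright, by 0.09. Whether Trem3 and its cluster neighbours differ from one another in this was not tested. Clec5a, a further DAP12 partner, differed by 0.10 (standard error 0.26). Clec4d, a C-type lectin that uses the gamma chain, differed by 0.43 (standard error 0.39). It read 7.96, 8.02 and 7.92 in Apcmin, against 6.57, 7.91 and 8.12 in WT, so that difference rested on WT replicate 1. Clec4e, the other bright lectin of the list, differed by -0.24 (standard error 0.24).

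All 7 other ITAM adaptors and their relatives had a lower mean, with a median of -0.56, but 5 of the 7 were dim chains of the T cell and B cell receptors. Most of these chains averaged from 2 to 4, a range in which 76.8% of all genes had a lower mean. The 2 bright genes of the list differed less. Hcst, or DAP10, whose gene adjoins Tyrobp, averaged 6.06 ± 0.29 in Apcmin and 6.34 ± 0.27 in WT, and Cd79b, of the B cell receptor, 7.92 ± 0.25 in Apcmin and 8.06 ± 0.09 in WT (SD, n = 3 each).

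The 9 measured ITAM kinases had a median difference of 0.04, with 6 higher and 3 lower in Apcmin, and all 4 bright ones (Btk, Fyn, Syk and Tec) had a higher mean. Syk, the kinase that docks on phosphorylated ITAMs, averaged 8.51 ± 0.03 in Apcmin and 8.30 ± 0.14 in WT (SD, n = 3 each). The difference was 0.21 (standard error 0.14), and it did not pass in limma, with adjusted p = 0.954. Its sign was opposite to that of the bright receptors and adaptors above, and each Apcmin array lay above each WT array. Zap70, the relative of Syk in T and NK cells, was dim and had the largest difference on the list, -1.18 ± 0.36 (SE), and did not pass in limma (adjusted p = 0.954). It averaged 3.61 ± 0.53 in Apcmin and 4.79 ± 0.55 in WT (SD, n = 3 each), and each Apcmin array lay below each WT array. Btk differed by 0.01 and Fyn by 0.06, while Fgr, a dim Src family kinase of myeloid cells, differed by 0.77 with a standard error of 0.43. Downstream, the 27 measured adaptors and effectors had a median of 0.004, with 14 higher and 13 lower. Plcg2, the phospholipase of ITAM signalling in myeloid cells, averaged 9.35 ± 0.03 in Apcmin and 9.08 ± 0.24 in WT (SD, n = 3 each). Lat2, an adaptor phosphorylated after Fc receptor engagement, differed by -0.08, and Grb2 and Plcg1, the brightest on the list, by 0.01 and -0.04.

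On the inhibitory side, the phosphatases Inpp5d, Ptpn6 and Ptpn11, all bright, had estimates near 0. Inpp5d, the SHIP1 lipid phosphatase that acts below Fcgr2b, averaged 9.64 ± 0.07 in Apcmin and 9.59 ± 0.27 in WT (SD, n = 3 each), and Ptpn6, or SHP-1, 9.50 ± 0.04 in Apcmin and 9.51 ± 0.11 in WT (SD, n = 3 each). Ptpn11 differed by -0.05. The list of 12 phosphatases and brakes recruited by ITIM receptors had a median of -0.07 and 9 lower, where 57.0% of all genes were. Of its 11 bright genes 8 were lower, where 43.7% of bright genes were. Inppl1, the only dim gene on it, differed by -0.32 (standard error 0.34). The other ITIM receptors, 17 measured, had a median of -0.08, and their 2 brightest members Sirpa and Cd72 differed by -0.11 and 0.12. Pirb, the paired immunoglobulin-like receptor B, was dim and differed by -0.01. Differences on this list ran from -0.48 for Siglecf to 1.21 for Pilra. Pilra was dim, at 4.62 ± 0.18 in Apcmin and 3.40 ± 0.69 in WT (SD, n = 3 each), and each Apcmin array lay above each WT array (limma, adjusted p = 0.954).

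**Figure D4:**
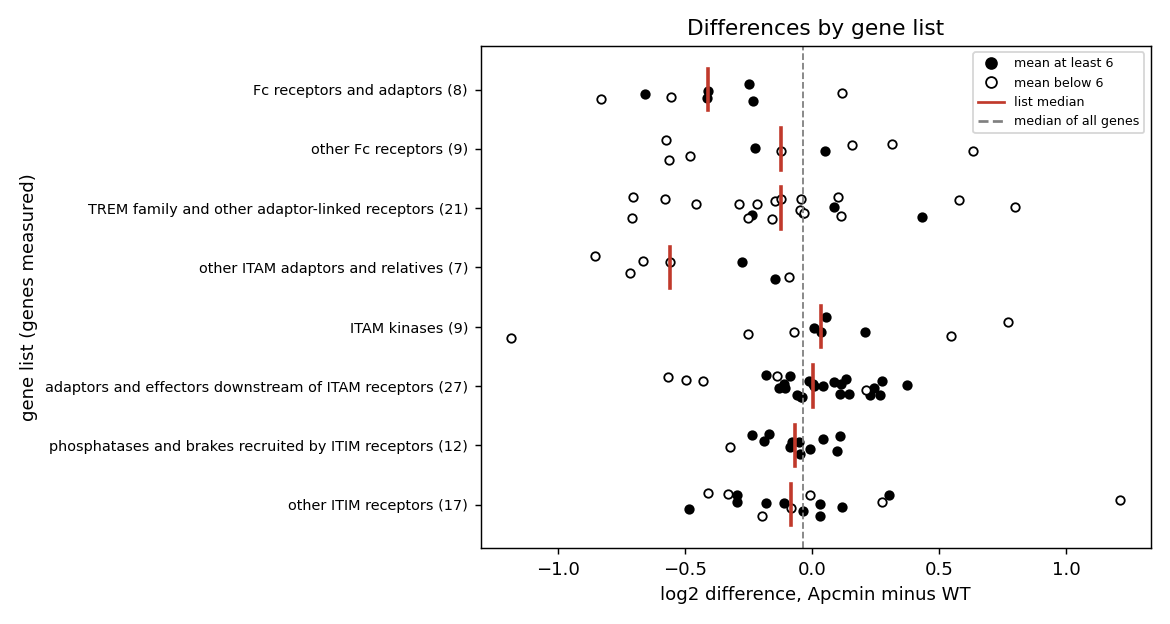
Log2 difference of Apcmin minus WT (horizontal axis) for each measured gene of the Fc receptor and adaptor group and of 7 related lists, with filled points for a mean log2 intensity of at least 6, open points for dimmer genes, a red bar for the list median and a dashed line for the median of all genes. Kinases and downstream effectors centre near 0, and the Fc receptor group, which was chosen on this contrast, centres at -0.41.

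Position on the chromosome was examined because Fcgr2b, Fcgr3, Fcgr4 and Fcer1g lie close together. Within 200 kb of any of them 20 other protein-coding genes were measured, and 14 were bright. Their median difference was 0.01, with 6 lower and 8 higher, and the range ran from -0.26 for Nit1 to 0.31 for Atf6. Sdhc, a subunit of mitochondrial complex II encoded between Fcgr3 and Fcer1g, differed by -0.05, and Ufc1, which lies beyond Fcer1g, by -0.03. The bright neighbours thus had no common direction. Nit1 was lower in every Apcmin array than in every WT array, and Pfdn2 higher. All the dim neighbours had a lower mean, from -0.64 for Apoa2 to -0.14 for Nectin4, where 57.0% of all genes did. That share was 76.8% of genes averaging from 2 to 4 and 52.7% of those from 4 to 6. In Apoa2 and Usf1 every Apcmin array lay below every WT array, as in 4.76% of all genes. The part that position had in the Fc receptor values was not tested.

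The genes whose pattern over the 6 arrays was most like that of Fcgr2b were Ano10, Pcif1, Dhdh, Fbxl17 and Depdc5. Likeness was the root mean square difference between values centred on each gene's mean, compared over 8657 bright genes. It was 0.06 on the log2 scale for Ano10, 0.12 for Pcif1, Dhdh and Fbxl17, and 0.13 for Depdc5. With 6 arrays and so many genes some close matches can arise by chance, and how often was not computed. Among the members Trem3 came 22nd (0.18), Tyrobp 145th (0.24), Fcer1g 228th (0.26) and Fcgr3 487th (0.29). The members were listed with their genotype difference known, and that difference is part of this likeness. These ranks therefore in part restate the choice.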

How the data were processed

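The deposited table held linear intensity values, normalized by the authors, for each probe set on each array. Per the submitters' processing notes RMA was used (version and settings: not given in the sources used here). Log2 was taken with no pseudocount. Of 45101 probe sets, 64 controls were left out. The annotation gave a single symbol to 34945 probe sets, more than 1 to 932 and no symbol to 9160, and 34741 single symbols matched a RefSeq table (GRCm38.p6) by Entrez identifier. The brightest probe set by 6-array mean stood for a gene. Apcmin was compared with WT by limma 3.58.1 in R 4.3.3 (lmFit, eBayes, with a term for genotype alone), with Benjamini-Hochberg adjustment over 45037 probe sets. The number of arrays limits the precision, and the median 95% half-width of a difference was 0.40 over bright genes.

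The members and lists were chosen with earlier results of these data known. Named pathway genes were the 2 brightest of each list and a fixed set, some of whose genes are not reported here; Clec4e, Nkg7, Cd14, Zap70, Tec, Pilra, Siglecf, Csf1r, Ly86, S100a8, Camp, Nit1, Atf6, Sdhc and Ufc1 were named after their values were seen. Likeness to Fcgr2b gave the 5 closest bright genes. Promoters and motif counts come from RefSeq sequences, found for 6 of the 8 genes. Alternatives covered a further quantile normalization, a floor, a filter on dim probe sets, a variance trend, array weights, the mean of probe sets, a replicate block and leaving out each array.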

Additional observations from a re-analysis of the deposited data

How the results depend on the processing

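No probe set and none of the pathway genes passed the threshold in limma under any alternative run, each array left out included. The smallest adjusted p was 0.333 (without WT replicate 3, where 5864 probe sets had an unadjusted p under 0.05). Leaving out any single array gave a median difference of the 8 genes from -0.49 to -0.35, with 7 or 8 of them lower. It was -0.33 with values under 4 set to 4, and Fcer1a was then 0. The filter at a log2 mean of 6 kept 5 of the 8 genes, all of them lower. Fcgr2b differed by -0.49 with the mean of its probe sets in place of the brightest, and by -0.77 to -0.53 over the fits with 5 arrays. Only Fcer1a changed sign, to -0.33 without WT replicate 1 and -0.04 without Apcmin replicate 3, and its highest value with an array left out was 0.49. The titles number replicates 1 to 3 in both genotypes, but same-numbered arrays did not deviate together (correlations of -0.05, -0.07 and -0.23 over probe sets), so the numbers were not taken as pairs. With the replicate block 0 probe sets passed, 1398 had an unadjusted p under 0.05, 0 pathway genes passed and 7 genes of the group were lower, with the same median of -0.41. Dim genes are limited by background, since no detection call was used.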
